A study of Mus musculus with 6 samples.

Results

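The expression of chemokine receptors other than *Ccr6* and *Cxcr3* was examined by RNA-seq in murine CD4 T cells. The genes were chosen by name and comprised *Ccr2*, *Ccr4*, *Ccr7*, *Ccr8*, *Ccr9*, *Ccr10*, *Cxcr4*, *Cxcr5* and *Cxcr6*, which are 9 of the 56748 genes in the table of counts. The study examined phosphoglycerate mutase (PGAM), an enzyme of glycolysis, in the differentiation of regulatory T cells (Tregs). Naïve CD4 cells were taken by negative selection from primary splenocytes, and per the study's methods also from lymph nodes, of young adult C57BL/6 mice of WT genotype. They were kept for 3 days under Treg polarizing conditions, with antibodies to CD3 and CD28, IL-2, TGF-β and antibodies that block IFNγ and IL-4, and RNA was taken without sorting. The groups shared all of this and differed in the antisense oligonucleotide (ASO), a short synthetic strand that binds a matching RNA, which was added to the medium from the start. The scrambled ASO label was carried by 3 libraries and the *Pgam* ASO label by 3 others, described in the study as biological replicates. Summed over all genes, scrambled ASO replicates 1, 2 and 3 held 17588755, 18032805 and 16231127 counts, and *Pgam* ASO replicates 1, 2 and 3 held 16589933, 15860476 and 16803881 counts. Values are listed below in this order of replicates.

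Chemokine receptors are G protein-coupled receptors that sense secreted chemokines and steer the migration of leukocytes. Naïve T cells use CCR7 to enter lymph nodes along CCL19 and CCL21, whereas activated and regulatory T cells can gain receptors such as CCR4 and CCR8, which are known from skin and inflamed tissue. The set of receptors on a CD4 cell therefore changes with its activation and lineage.

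The 9 genes lie on 3 chromosomes in the GENCODE M21 annotation of GRCm38, and all encode proteins. On chromosome 9 are 6 of them: *Cxcr5* (44511787 to 44561877), *Ccr4* (114490316 to 114504916), *Ccr8* (120092114 to 120094906), *Ccr9* (123678439 to 123784330), *Cxcr6* (123806475 to 123811760) and *Ccr2* (124101950 to 124113557). *Cxcr6* begins 22144 bases after the end of *Ccr9*, and *Ccr2* begins 290189 bases after the end of *Cxcr6*. On chromosome 11 are *Ccr7* (99144196 to 99155077) and *Ccr10* (101172997 to 101175443), and on chromosome 1 is *Cxcr4* (128588199 to 128592293). *Cxcr6* lies within *Fyco1*, *Ccr10* overlaps *Cntnap1* and *Cxcr5* overlaps *Bcl9l*, each on the opposite strand. The exon bases shared were 0% for *Cxcr6* and *Ccr10* and 3.30% for *Cxcr5*, and the use of strand in counting is not given in the sources used here, so reads from the shared *Cxcr5* bases cannot be told apart from those of *Bcl9l*. Kallisto has to divide reads between genes that share 31-base stretches of sequence. Such stretches made up 21.7% of *Ccr9*, mainly through the overlapping gene AC165425.1, and 3.48% of *Ccr2*. In the other 7 genes the share was at most 2.42%, the value for *Cxcr5*. The Ensembl identifiers are ENSMUSG00000049103 (*Ccr2*), ENSMUSG00000047898 (*Ccr4*), ENSMUSG00000037944 (*Ccr7*), ENSMUSG00000042262 (*Ccr8*), ENSMUSG00000029530 (*Ccr9*), ENSMUSG00000044052 (*Ccr10*), ENSMUSG00000045382 (*Cxcr4*), ENSMUSG00000047880 (*Cxcr5*) and ENSMUSG00000048521 (*Cxcr6*).

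The RefSeq table of promoters on GRCm38.p6 held 6 of the 9 genes, namely *Ccr2*, *Ccr4*, *Ccr8*, *Ccr9*, *Cxcr4* and *Cxcr6*. Each window runs from 250 bases before a RefSeq start site to 50 bases from it, 300 bases in all. The windows of *Cxcr6* (chr9:123806227-123806526, plus strand), *Cxcr4* (chr1:128592250-128592549, minus strand), *Ccr8* (chr9:120091883-120092182, plus strand) and *Ccr4* (chr9:114496495-114496794, minus strand) are shown 5′ to 3′ along each gene. The start site of the *Ccr4* window lies 8372 bases inside the gene as GENCODE gives it, 18 bases from the start of another of its transcripts, and those of the other 3 lie within 19 bases of the 5′ end of the gene. The windows were picked after the values were seen, because these genes behaved differently from each other between the labels. Capitals mark the letters of 6 motifs known from T cell and general promoters, searched on both strands. NFAT, a factor of T cell activation, was searched as TGGAAA. The AP-1 motif was taken as TGANTCA and that of GATA factors as AGATAA. For general promoter elements, the TATA box was read as TATAAA and the GC box as CCGCCC. KLF factors, which include KLF2 of quiescent T cells, were searched as CACCC.
Cxcr6: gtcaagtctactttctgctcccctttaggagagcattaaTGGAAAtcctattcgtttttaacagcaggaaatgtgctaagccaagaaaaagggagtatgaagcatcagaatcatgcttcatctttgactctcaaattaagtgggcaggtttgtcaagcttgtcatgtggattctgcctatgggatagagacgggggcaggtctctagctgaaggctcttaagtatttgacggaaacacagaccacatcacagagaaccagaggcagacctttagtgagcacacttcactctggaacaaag
Cxcr4: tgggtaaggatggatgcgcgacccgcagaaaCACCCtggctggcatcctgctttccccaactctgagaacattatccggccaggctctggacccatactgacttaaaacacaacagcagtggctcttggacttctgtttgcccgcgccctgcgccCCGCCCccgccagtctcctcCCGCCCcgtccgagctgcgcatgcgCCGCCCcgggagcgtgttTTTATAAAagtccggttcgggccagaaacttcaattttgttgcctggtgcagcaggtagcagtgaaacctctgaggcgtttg
Ccr8: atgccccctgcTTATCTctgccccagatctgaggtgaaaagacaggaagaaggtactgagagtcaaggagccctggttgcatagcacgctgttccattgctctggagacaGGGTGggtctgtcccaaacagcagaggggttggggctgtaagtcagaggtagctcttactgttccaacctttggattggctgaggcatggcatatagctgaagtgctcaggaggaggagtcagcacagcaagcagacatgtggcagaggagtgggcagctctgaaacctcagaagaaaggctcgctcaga
Ccr4: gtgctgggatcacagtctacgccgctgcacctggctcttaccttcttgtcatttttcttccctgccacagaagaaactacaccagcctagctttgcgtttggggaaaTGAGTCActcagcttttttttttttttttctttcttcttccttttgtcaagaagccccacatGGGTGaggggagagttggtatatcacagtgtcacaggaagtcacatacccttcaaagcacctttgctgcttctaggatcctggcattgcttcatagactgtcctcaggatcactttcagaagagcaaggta
With the start site as position 0, the *Cxcr6* window held TGGAAA at -211. The *Cxcr4* window held TATAAA at -30 on the plus strand of the gene and, overlapping it, at -32 on the other strand. It also held CCGCCC at -95, -75 and -50, and CACCC at -219. The *Ccr8* window held AGATAA at -239 and CACCC at -140, both on the other strand, and the *Ccr4* window held TGANTCA at -143 and CACCC, on the other strand, at -81. Of the 32851 windows of the table, 21.4% held TGGAAA, 7.81% TGANTCA, 11.2% AGATAA, 13.6% TATAAA, 35.7% CCGCCC and 57.5% CACCC. A match is a run of letters and says nothing of binding.

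The RNA of the ASO targets was examined first. *Pgam1* was at 600, 478 and 707 CPM (the counts of each library scaled to a common total, with TMM normalization) under the scrambled ASO label and at 658, 661 and 707 CPM under the *Pgam* ASO label. The groups overlapped, with a log2 fold change of 0.18 (SE 0.13, adjusted p = 0.331 in the quasi-likelihood test of edgeR, adjusted by the Benjamini-Hochberg method over all tested genes). *Pgam2* was at 5.23, 6.75 and 2.85 CPM against 2.98, 2.70 and 2.60 CPM, and its log2 fold change of -0.84 (SE 0.31) gave an adjusted p of 0.0854 from the same edgeR test. Without replicate 3 labelled scrambled ASO it was -1.11 with an adjusted p of 0.0144, and over 13 alternative analyses the adjusted p ran from 0.0144 to 0.286. The chemistry and target site of the ASO are not given in the sources used here, so whether it lowers the RNA of its target is not known, and the study reported less PGAM1 by flow cytometry in cells given the *Pgam* ASO. Since neither target separated the labels at the RNA level, the groups are named by their labels throughout, and each direction below is that of libraries labelled *Pgam* ASO over libraries labelled scrambled ASO. *Foxp3*, which encodes the defining transcription factor of Tregs, was at 282, 371 and 222 CPM in the libraries labelled scrambled ASO and at 89.7, 109 and 131 CPM in those labelled *Pgam* ASO. It fell without overlap between the labels, by 1.41 on the log2 scale (SE 0.20, edgeR adjusted p = 0.00567). The study also reports *Foxp3* as lower with the *Pgam* ASO, from the same libraries.

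Of the 9 receptor genes, 8 passed the filter on low counts, 3 fell and 0 rose when called by edgeR, with 0.05 as the threshold on the adjusted p. Over all genes, 2565 of 14936 tested genes passed (17.2%), of which 1366 were lower (9.15%) and 1199 higher (8.03%) in the libraries labelled *Pgam* ASO. At an unadjusted p under 0.05, edgeR put 5 receptor genes lower and 1 higher, beside 17.7% of all tested genes lower and 17.2% higher. The lower ones were *Ccr7*, *Cxcr4*, *Cxcr5*, *Cxcr6* and *Ccr9*, and the direction of *Ccr9* followed from the filter, as given below. DESeq2 called 3 lower and 1 higher, beside 5.39% and 5.34% of the 28512 genes it was given. By limma-voom, 4 were lower and 0 higher, beside 8.94% and 7.99% of all tested genes. The median log2 fold change of the 8 tested genes was -1.23, beside -0.0061 for all tested genes. The labels did not overlap for 5 of the 8, each lower in the libraries labelled *Pgam* ASO, beside 39.5% of all tested genes without overlap in either direction. Among the 5 was *Ccr9*, which reached the level of the filter, 0.599 CPM before normalization, in libraries labelled scrambled ASO alone, so its direction followed from its being tested. Without it 4 of 7 did not overlap, and the median was -1.21. The number of receptor genes called was 6 (5 lower, 1 higher) without replicate 3 labelled *Pgam* ASO and 2 without replicate 2 labelled *Pgam* ASO. The 5 lower without replicate 3 again included *Ccr9*, with the same limit on its direction. Over all genes, 620, 1256 and 3484 were called without replicates 1, 2 and 3 labelled scrambled ASO, and 871, 391 and 3319 without those labelled *Pgam* ASO. In these bulk samples, fewer cells of a type and less RNA per cell cannot be told apart.

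**Figure D1:**
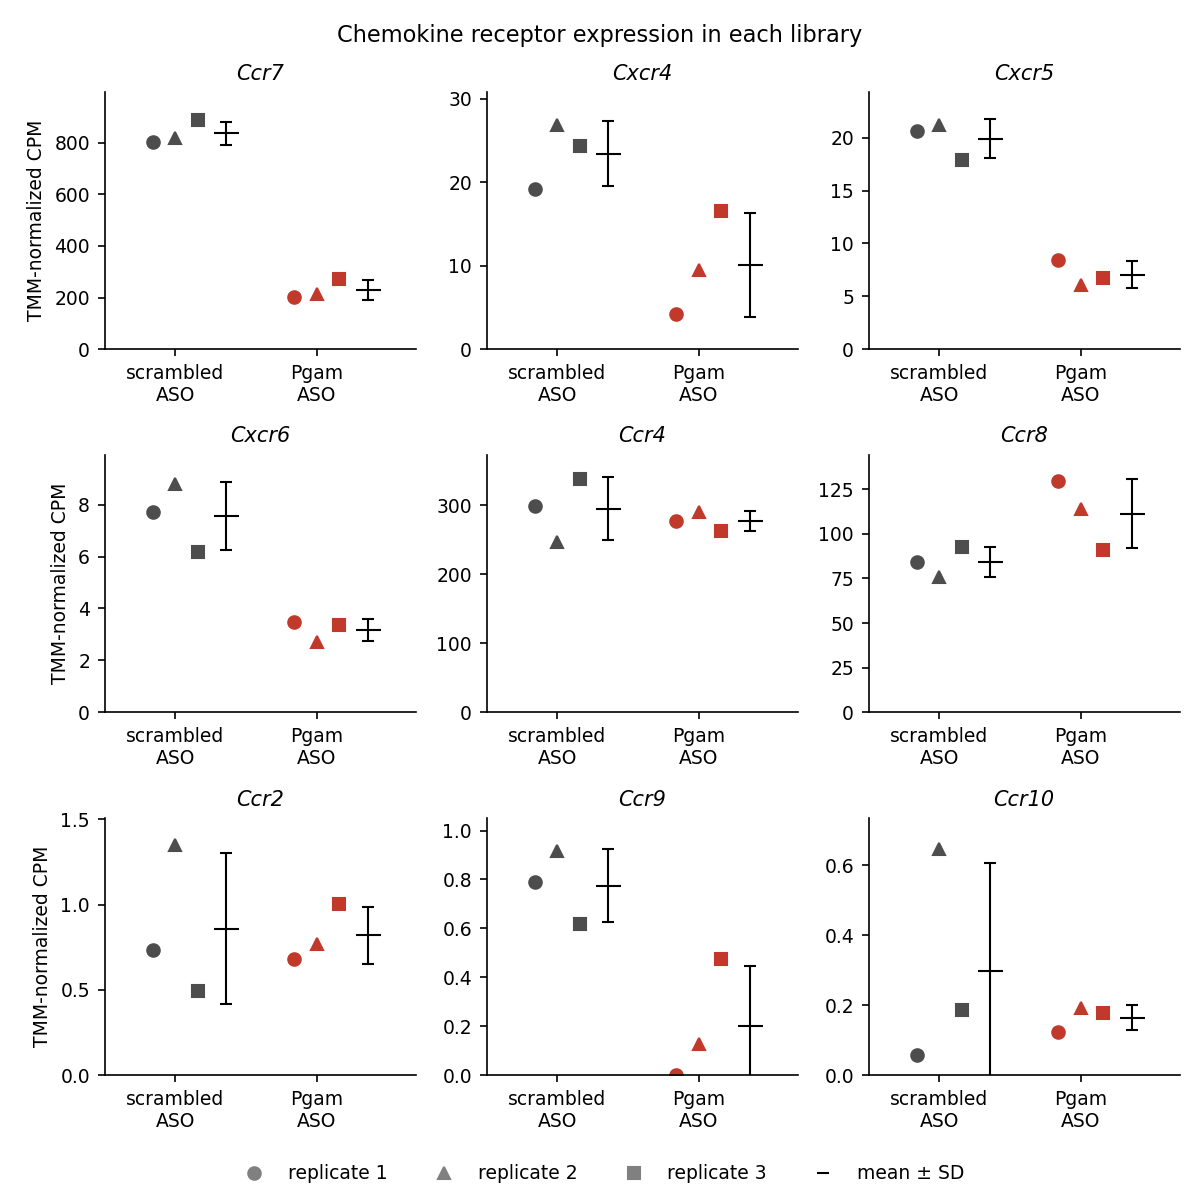
TMM-normalized CPM (vertical axes, each from 0) of the 9 receptor genes in the 3 libraries labelled scrambled ASO (grey) and the 3 labelled Pgam ASO (red), with 1 symbol per replicate and the mean ± SD beside them in black, where bars stop at 0. Ccr7, Cxcr5 and Cxcr6 are lower in every library labelled Pgam ASO, Cxcr4 is spread from 4.22 to 16.6 CPM there, and Ccr4 and Ccr8 overlap between the labels.

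The libraries labelled *Pgam* ASO were not alike in how far they lay from the others. Among the 5894 tested genes whose labels did not overlap, replicate 3 was the library labelled *Pgam* ASO nearest to the scrambled mean in 3606 (61.2%), against 1060 for replicate 1 and 1228 for replicate 2. The same replicate was nearest for 3 of the 5 receptor genes without overlap, *Ccr7*, *Cxcr4* and *Ccr9*.

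Receptors that direct T cells into and within lymphoid tissue came first. *Ccr7*, the lymph node entry receptor of naïve and central memory T cells, was at 802, 819 and 888 CPM under the scrambled ASO label and at 202, 212 and 274 CPM under the *Pgam* ASO label. Every library labelled *Pgam* ASO was thus well below every library labelled scrambled ASO, and the spread within each label was small beside the gap. Averaged by label, that is 836 ± 45.6 CPM (SD, n = 3) for scrambled ASO and 229 ± 38.8 CPM (SD, n = 3) for *Pgam* ASO. On the log2 scale it fell by 1.87 (SE 0.12, edgeR adjusted p = 9.27e-05), so that the libraries labelled scrambled ASO held 3.65 times as much. The fall was called in each of 13 alternative analyses, with log2 fold changes from -2.01 to -1.78 and an adjusted p of at most 0.00439.

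*Cxcr5*, which guides follicular helper T cells and B cells to CXCL13 in B cell follicles, was at 20.7, 21.2 and 17.8 CPM in the libraries labelled scrambled ASO and at 8.45, 6.03 and 6.69 CPM in those labelled *Pgam* ASO. The labels were again separate, with replicate 1 the highest of those labelled *Pgam* ASO. The label means were 19.9 ± 1.81 CPM (SD, n = 3) for scrambled ASO and 7.05 ± 1.25 CPM (SD, n = 3) for *Pgam* ASO, and the log2 fold change was -1.50 (SE 0.16, edgeR adjusted p = 0.000855). It passed in each of 13 alternatives, which gave values from -1.64 to -1.40 and an adjusted p no higher than 0.0128.

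Since B cells also express *Cxcr5*, their markers were read beside it. Of the B cell list of 6 genes, which included *Ms4a1*, *Cd79a*, *Cd79b*, *Pax5* and *Ighm*, 1 was called, beside 17.2% of all tested genes. It was *Ighm*, which was lower (log2 fold change -1.58, edgeR adjusted p = 0.0282). The summed level of the list was 329, 458 and 222 CPM in the libraries labelled scrambled ASO and 85.3, 120 and 150 CPM in those labelled *Pgam* ASO. Its most abundant gene was *Ighm*, with a mean of 218 CPM over all libraries. Without *Ighm* the list summed to 9.29, 11.6 and 6.63 CPM against 9.75, 8.92 and 7.87 CPM, which overlap. The part of *Ighm* in the result was not tested.

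*Cxcr4*, the receptor for CXCL12, which retains cells in bone marrow and is used widely by lymphocytes, was the most variable of the abundant receptors. It was at 19.1, 26.8 and 24.3 CPM in the libraries labelled scrambled ASO and at 4.22, 9.43 and 16.6 CPM in those labelled *Pgam* ASO. The labels did not overlap, but the libraries labelled *Pgam* ASO covered a wide range, and replicate 3 lay close to the lowest library labelled scrambled ASO. Scrambled ASO averaged 23.4 ± 3.91 CPM (SD, n = 3), whereas *Pgam* ASO averaged 10.1 ± 6.20 CPM (SD, n = 3). The log2 fold change, -1.21 (SE 0.43), did not pass in edgeR (adjusted p = 0.0955). It was called without replicate 3 labelled *Pgam* ASO (-1.77, adjusted p = 0.00832), with limma-voom (-1.40, adjusted p = 0.0482) and with replicate number as a block (-1.37, adjusted p = 0.0351). Over its 13 alternatives the adjusted p ran from 0.00832 to 0.327.

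Receptors linked to peripheral and barrier tissues behaved unequally. *Cxcr6*, which binds CXCL16 and marks effector and tissue-resident T cells, was at 7.71, 8.80 and 6.20 CPM in the libraries labelled scrambled ASO and at 3.48, 2.70 and 3.37 CPM in those labelled *Pgam* ASO. No library labelled *Pgam* ASO reached the lowest of the others. Between label means of 7.57 ± 1.31 CPM (SD, n = 3) for scrambled ASO and 3.18 ± 0.425 CPM (SD, n = 3) for *Pgam* ASO, the log2 fold change was -1.25 (SE 0.22, edgeR adjusted p = 0.00801). Without replicate 2 labelled *Pgam* ASO the fold change was -1.14 and the adjusted p 0.0575, and over all 13 alternatives the adjusted p ran from 3.31e-05 to 0.0575.

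*Ccr4*, the receptor for CCL17 and CCL22 on Th2 cells, Tregs and skin-homing T cells, was at 300, 248 and 339 CPM in the libraries labelled scrambled ASO and at 278, 291 and 263 CPM in those labelled *Pgam* ASO. The range of the libraries labelled *Pgam* ASO lay inside that of the libraries labelled scrambled ASO, and replicate 2 labelled scrambled ASO was the lowest of all 6. The log2 fold change was -0.09 (SE 0.11, edgeR adjusted p = 0.602), and it was 0.02 without replicate 3 labelled scrambled ASO. In each of its 13 alternatives the adjusted p was at least 0.168.

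*Ccr8*, the CCL1 receptor known from Tregs of skin and tumors and from Th2 cells, had the highest fold change among the tested members. Its level was 84.2, 75.9 and 92.7 CPM in the libraries labelled scrambled ASO and 129, 114 and 90.7 CPM in those labelled *Pgam* ASO. Replicates 1 and 2 labelled *Pgam* ASO were above every other library, whereas replicate 3 lay below replicate 3 labelled scrambled ASO. The log2 fold change of 0.40 (SE 0.13) had an edgeR adjusted p of 0.0573 and was not called. It was called without replicate 3 labelled *Pgam* ASO (0.53, adjusted p = 0.0123) and without replicate 3 labelled scrambled ASO (0.48, adjusted p = 0.0393). DESeq2 (0.41, adjusted p = 0.0277) and edgeR with no filter on low counts (0.41, adjusted p = 0.00121) also called it higher, and over 13 alternatives the adjusted p ran from 0.00121 to 0.195.

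The remaining 3 genes were close to the limit of the depth, where 3 counts correspond to 0.162 to 0.192 CPM across the libraries, a floor that covers counting error only. *Ccr2*, which binds CCL2 and serves monocytes and effector T cells, had 13, 25 and 8 counts under the scrambled ASO label and 11, 12 and 17 under the *Pgam* ASO label. The labels overlapped fully, and the log2 fold change of -0.08 (SE 0.46, edgeR adjusted p = 0.926) was above 0 in 3 of 12 alternatives. *Ccr9*, the gut-homing receptor for CCL25, had 14, 17 and 10 counts against 0, 2 and 8 counts. Each library labelled *Pgam* ASO was below the lowest library labelled scrambled ASO, and the count of 0 in replicate 1 allows a level of up to 0.186 CPM. Its log2 fold change of -1.89 (SE 0.74) had an edgeR adjusted p of 0.0998, which was 0.0262 (-3.47) without replicate 3 labelled *Pgam* ASO and ran up to 0.285 over 12 alternatives. With the counts of AC165425.1 added, the fold change was -1.96. *Ccr10*, a receptor for CCL27 and CCL28 on skin-homing T cells and plasma cells, had 1, 12 and 3 counts against 2, 3 and 3 counts and was not tested. Apart from replicate 2 labelled scrambled ASO, its counts were at or below the floor.

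**Figure D2:**
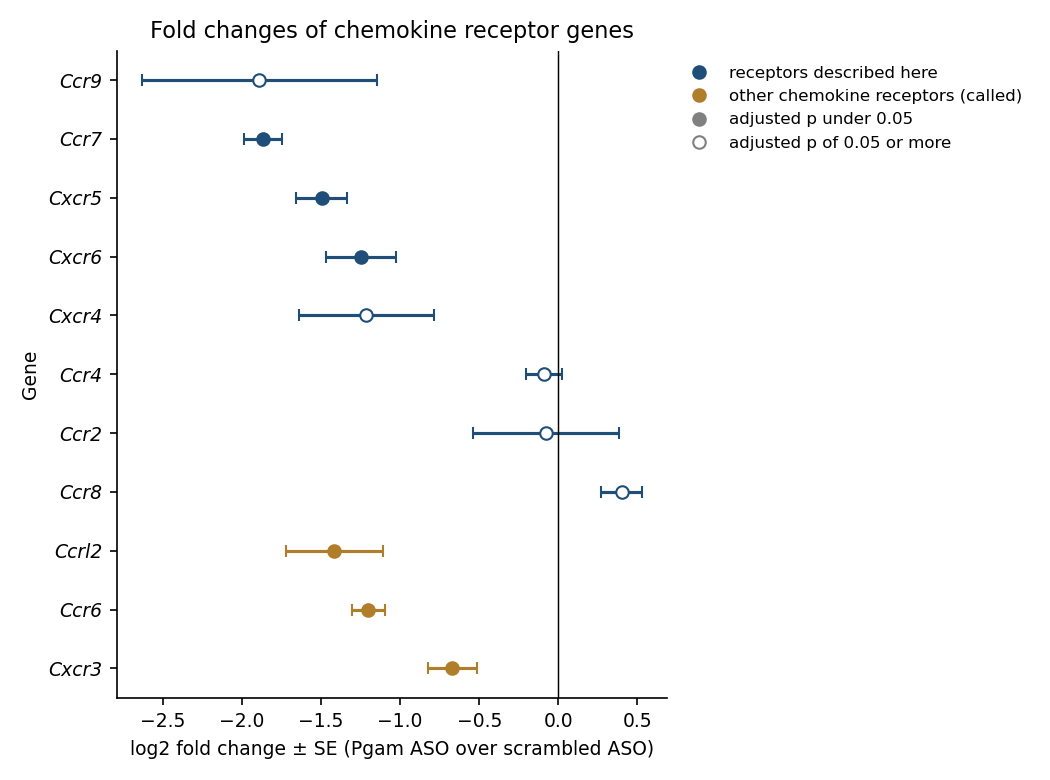
Log2 fold change (horizontal axis, Pgam ASO over scrambled ASO) of the 8 tested members (blue) and of the 3 other chemokine receptors that were called (ochre), with the standard error as bars; filled points have an edgeR adjusted p under 0.05. Ccr7, Cxcr5 and Cxcr6 lie between -1.87 and -1.25 with short bars, Cxcr4 lies at -1.21 and Ccr9 at -1.89 with longer ones, and Ccr8 lies at 0.40.

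To compare levels between genes, CPM was divided by the length in kilobases of each gene's median transcript. In the libraries labelled scrambled ASO, *Ccr7* was highest with 423 ± 23.1 CPM per kilobase (SD, n = 3), followed by *Ccr4* with 214 ± 33.0 and *Ccr8* with 71.7 ± 7.16 CPM per kilobase. *Cxcr4* (17.3 ± 2.89), *Cxcr5* (7.62 ± 0.692) and *Cxcr6* (3.98 ± 0.688 CPM per kilobase) came next, each separate from its neighbours in every library. *Ccr2*, *Ccr9* and *Ccr10* were at most 0.415 CPM per kilobase in any of these libraries and overlapped each other. In the libraries labelled *Pgam* ASO, *Ccr4* stood first with 201 ± 10.04 CPM per kilobase, then *Ccr7* with 116 ± 19.6 and *Ccr8* with 94.8 ± 16.6, and the last pair overlapped. *Cxcr4* (7.44 ± 4.58) and *Cxcr5* (2.70 ± 0.478 CPM per kilobase) overlapped as well, and *Cxcr6* was at 1.67 ± 0.224 CPM per kilobase.

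The makeup of the 9 receptor transcripts therefore differed between the labels. Their summed level was 720, 692 and 801 CPM per kilobase in the libraries labelled scrambled ASO and 422, 426 and 423 CPM per kilobase in those labelled *Pgam* ASO. *Ccr7* held 56.3%, 59.9% and 56.0% of the sum in the former and 24.2%, 25.2% and 32.7% in the latter. *Ccr4* held 30.1%, 25.9% and 30.6% of the sum, and 47.7%, 49.4% and 45.0%, respectively. *Ccr8* held 9.95%, 9.35% and 9.85% against 26.1%, 22.8% and 18.2%. Each of these 3 shares was separate between the labels, although the levels of *Ccr4* and *Ccr8* were not. The shares of a library are parts of the same sum, so a lower level of *Ccr7* by itself raises the shares of the other genes. The 3 separations are therefore not independent of each other. With the longest transcript of each gene, a choice made after the data were seen, *Ccr7* held a mean of 67.8% and 36.2%, *Ccr4* 16.8% and 31%, and *Ccr8* 11.5% and 29.7% in the libraries labelled scrambled ASO and *Pgam* ASO. *Ccr7* then ranked above *Ccr4* under both labels.

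**Figure D3:**
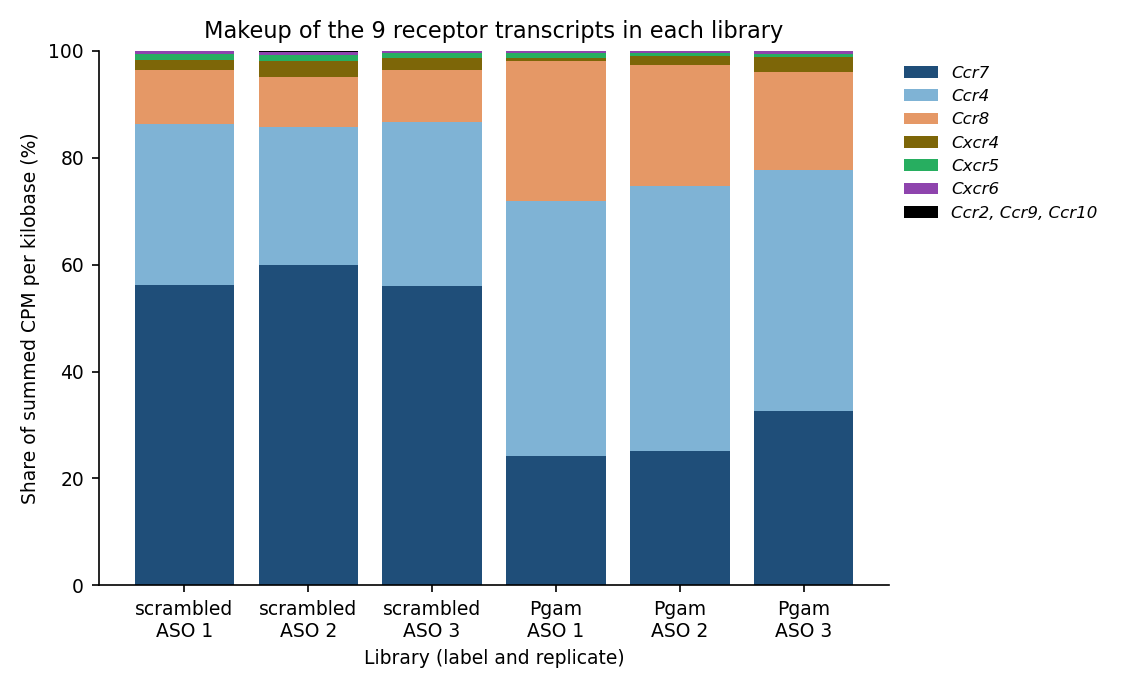
Share (vertical axis, %) of each receptor gene in the summed CPM per kilobase of median transcript of the 9 genes, as stacked bars for each of the 6 libraries. Ccr7 takes 56.0% to 59.9% of the sum in the libraries labelled scrambled ASO and 24.2% to 32.7% in those labelled Pgam ASO, where Ccr4 and Ccr8 take more.

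For each member that fell, the tested genes with the most similar pattern were sought among those with a mean log2 CPM of at least 3, using Pearson r of log2 CPM over the 6 libraries. The libraries form 2 labelled groups, so r mostly describes that split, and it is given as a description. *Ccr7* was most like *Plagl1* (r = 0.997) and *Zc3h12d* (r = 0.997), and 254 of 9506 genes had r of at least 0.95 with it. *Zc3h12d*, which encodes an RNase of the regnase family, was at 200, 199 and 205 CPM in the libraries labelled scrambled ASO and at 87.6, 94.6 and 114 CPM in those labelled *Pgam* ASO. *Cxcr5* was most like *Timp2* (r = 0.998), an inhibitor of matrix metalloproteinases, and *Sspo* (r = 0.997). *Sspo* was at 133, 157 and 121 CPM against 45.3, 33.9 and 37.4 CPM. *Cxcr6* was most like *Ndst2* (r = 0.996) and *Cblb* (r = 0.995), a ubiquitin ligase that restrains T cell activation. *Cblb* was at 176, 210 and 142 CPM against 84.7, 73.1 and 91.3 CPM, whereas *Ndst2* covered only 33.5 to 35.0 CPM against 29.6 to 30.3 CPM.

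The other chemokine receptors, conventional and atypical, formed a list that included *Ccr1*, *Ccr3*, *Ccr6*, *Cxcr1*, *Cxcr2*, *Cxcr3*, *Xcr1*, *Cx3cr1*, *Ccrl2* and the *Ackr* genes. Of 15 listed, 6 were tested and 3 fell, beside 9.15% of all tested genes called lower. The median log2 fold change was -0.60. The 9 not tested reached at most 0.651 CPM in any library, and *Ackr1* was at 0 in all 6. *Ccrl2*, a receptor that binds chemerin without signalling, was at 5.40, 4.75 and 5.45 CPM against 1.18, 1.86 and 2.78 CPM (log2 fold change -1.41, SE 0.31, edgeR adjusted p = 0.0164). *Ccr6*, the CCL20 receptor of Th17 cells, had a log2 fold change of -1.20 (SE 0.11, edgeR adjusted p = 0.000396), and *Cxcr3*, a receptor of Th1 cells, one of -0.67 (SE 0.15, edgeR adjusted p = 0.0199). *Ccr6* was called in each of 13 alternatives. The count of 3 became 1 without replicate 1 labelled scrambled ASO and 1 without replicate 2 labelled *Pgam* ASO, where *Ccrl2* had adjusted p-values of 0.0639 and 0.0870 and *Cxcr3* of 0.0736 and 0.105. *Cxcr3* also lost its call without replicate 2 labelled scrambled ASO, with an adjusted p of 0.0559. Over 13 alternatives the adjusted p ran from 7.08e-05 to 0.0870 for *Ccrl2* and from 0.000866 to 0.105 for *Cxcr3*.

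Ligands of the members were listed next (*Ccl1*, *Ccl2*, *Ccl7*, *Ccl8*, *Ccl12*, *Ccl17*, *Ccl19*, *Ccl21a*, *Ccl22*, *Ccl25*, *Ccl27a*, *Ccl28*, *Cxcl12*, *Cxcl13* and *Cxcl16*). Of 15, 6 were tested and 2 rose, beside 8.03% of all tested genes called higher. The median log2 fold change was 0.47. *Ccl1*, the ligand of CCR8, was at 5.18, 4.48 and 5.21 CPM in the libraries labelled scrambled ASO and at 14.5, 9.69 and 6.21 CPM in those labelled *Pgam* ASO. *Ccl17*, a ligand of CCR4, was at 0.619, 0.486 and 0.620 CPM against 3.29, 1.54 and 1.24 CPM. For both, replicate 1 labelled *Pgam* ASO was the highest and replicate 3 the lowest of that label, and the labels did not overlap. The log2 fold changes were 1.03 (SE 0.28, edgeR adjusted p = 0.0346) for *Ccl1* and 1.81 (SE 0.46, edgeR adjusted p = 0.0272) for *Ccl17*. Neither was called without replicate 1 or 2 labelled scrambled ASO or replicate 1 or 2 labelled *Pgam* ASO, where the adjusted p was 0.0955 to 0.122 for *Ccl1* and 0.0703 to 0.118 for *Ccl17*. With replicate number as a block neither was called (*Ccl1* 0.97, adjusted p = 0.0598, and *Ccl17* 1.72, adjusted p = 0.0511), and limma-voom did not call *Ccl1* (adjusted p = 0.0583). Over all alternatives the adjusted p ran from 4.84e-05 to 0.122 for *Ccl1* and from 0.00114 to 0.118 for *Ccl17*. *Ccl22*, the other CCR4 ligand and the most counted of the list, was at 70.0, 38.7 and 94.7 CPM against 134, 87.4 and 70.1 CPM, which overlap (log2 fold change 0.52, SE 0.39, edgeR adjusted p = 0.392). *Ccl2*, *Ccl7*, *Ccl8* and *Ccl19* were at 0 in every library. The ligands of CCR7 and CXCR5 were thus at or near the floor, with *Ccl21a* and *Cxcl13* at no more than 0.124 CPM in any library.

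Signalling genes that act downstream of chemokine receptors comprised G protein subunits, kinases and arrestins that silence the receptors, RGS proteins that end G protein signalling, and effectors of migration. The list held *Gnai2*, *Gnai3*, *Gnb1*, *Gnb2*, *Gng2*, *Arrb1*, *Arrb2*, *Grk2*, *Grk5*, *Grk6*, *Rgs1*, *Rgs2*, *Rgs3*, *Rgs10*, *Rgs14*, *Rgs16*, *Rgs19*, *Dock2*, *Elmo1*, *Rac1*, *Rac2*, *Cdc42*, *Rap1a*, *Rap1b*, *Rassf5*, *Rasgrp2*, *Pik3cg*, *Pik3r5*, *Pik3r6*, *Prex1*, *Tiam1*, *Vav1*, *Was*, *Coro1a* and *Stk4*. Of 35, 34 were tested, 6 fell and 4 rose, beside 9.15% of all tested genes called lower and 8.03% called higher. The median log2 fold change was 0.03. Among the 6 genes called lower, the largest fold changes were those of *Rgs2* (27.5, 40.3 and 24.7 CPM against 11.3, 10.1 and 10.5 CPM), *Rgs10*, *Pik3r5*, a regulatory subunit of PI3Kγ, and *Stk4*. Their log2 fold changes were -1.53 (SE 0.18), -0.72 (SE 0.17), -0.71 (SE 0.11) and -0.53 (SE 0.10), with edgeR adjusted p-values of 0.00136, 0.0220, 0.00532 and 0.0118. Among the rises, *Grk5*, a receptor kinase (6.47, 7.13 and 7.81 CPM against 14.1, 12.1 and 10.2 CPM), had a log2 fold change of 0.76 (SE 0.17, edgeR adjusted p = 0.0202), and *Elmo1*, *Rap1a* and *Gnb1* had 0.39, 0.33 and 0.29. Only *Rgs2* and *Pik3r5* of these 8 were called in each of 13 alternatives. The count of 10 became 2 without replicate 1 labelled scrambled ASO, 3 without replicate 1 labelled *Pgam* ASO and 2 without replicate 2 labelled *Pgam* ASO. In these 3 fits *Rgs10* had adjusted p-values of 0.0595, 0.0606 and 0.0870 and *Grk5* of 0.0869, 0.0733 and 0.0912, and *Stk4* lost its call without replicate 1 labelled scrambled ASO (0.0525) and without replicate 2 labelled *Pgam* ASO (0.0760). *Elmo1*, *Rap1a* and *Gnb1* lost theirs in all 3 fits as well, and *Rap1a* and *Gnb1* also without replicate 2 labelled scrambled ASO (0.0970 and 0.111), *Rap1a* without replicate 3 labelled scrambled ASO (0.0507) and *Gnb1* without replicate 3 labelled *Pgam* ASO (0.0655). With replicate number as a block the 4 rises were not called (adjusted p = 0.0562 for *Grk5*, 0.0634 for *Elmo1*, 0.108 for *Rap1a* and 0.109 for *Gnb1*), and with library size alone *Rap1a* (0.0566) and *Gnb1* (0.0530) were not. Over 13 alternatives the highest adjusted p was 0.0912 for *Grk5*, 0.0968 for *Elmo1*, 0.194 for *Rap1a* and 0.159 for *Gnb1*.

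The last list held 20 other genes of lymphocyte traffic, among them *S1pr1*, *S1pr4*, *Klf2*, *Foxo1*, *Cd69*, *Gpr183*, *Gpr15*, the integrin genes *Itga4*, *Itgae*, *Itgal*, *Itgb1*, *Itgb2* and *Itgb7*, and *Selplg*, *Fut7*, *Gcnt1*, *Cd44*, *P2ry10* and *Ptger4*. All 20 were tested, 8 fell and 1 rose, beside 9.15% of all tested genes called lower and 8.03% called higher. The median log2 fold change was -0.62. *Gcnt1*, a glycosyltransferase that builds selectin ligands, was at 4.50, 3.78 and 2.48 CPM against 0.745, 0.642 and 0.532 CPM (log2 fold change -2.48, SE 0.35, edgeR adjusted p = 0.00274). *Itga4*, an integrin subunit, and *P2ry10*, a receptor for lysophospholipids, fell by 1.26 (SE 0.22) and by 0.88 (SE 0.16) on the log2 scale, with edgeR adjusted p-values of 0.0138 and 0.0107. *Cd44*, an adhesion molecule of activated T cells, rose from 210, 191 and 199 CPM to 298, 257 and 224 CPM (log2 fold change 0.38, SE 0.11, edgeR adjusted p = 0.0390). *Klf2*, a transcription factor of T cell quiescence named here after its values were seen, was at 86.9, 139 and 61.8 CPM against 6.03, 14.8 and 42.9 CPM, without overlap but with an edgeR adjusted p of 0.0888. *Gcnt1* and *P2ry10* were called in every alternative that tested them. *Itga4* lost its call without replicate 1 (0.0503) or 2 (0.0537) labelled scrambled ASO and without replicate 2 labelled *Pgam* ASO (0.0673). With single libraries left out, *Cd44* was called without replicate 3 labelled *Pgam* ASO and had adjusted p-values of 0.0516 to 0.135 without each of the other 5. With all 6 libraries and replicate number as a block it was not called (0.37, adjusted p = 0.0687). The count of 9 became 4 without replicate 1 labelled scrambled ASO, 5 without replicate 1 labelled *Pgam* ASO and 3 without replicate 2 labelled *Pgam* ASO.

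**Figure D4:**
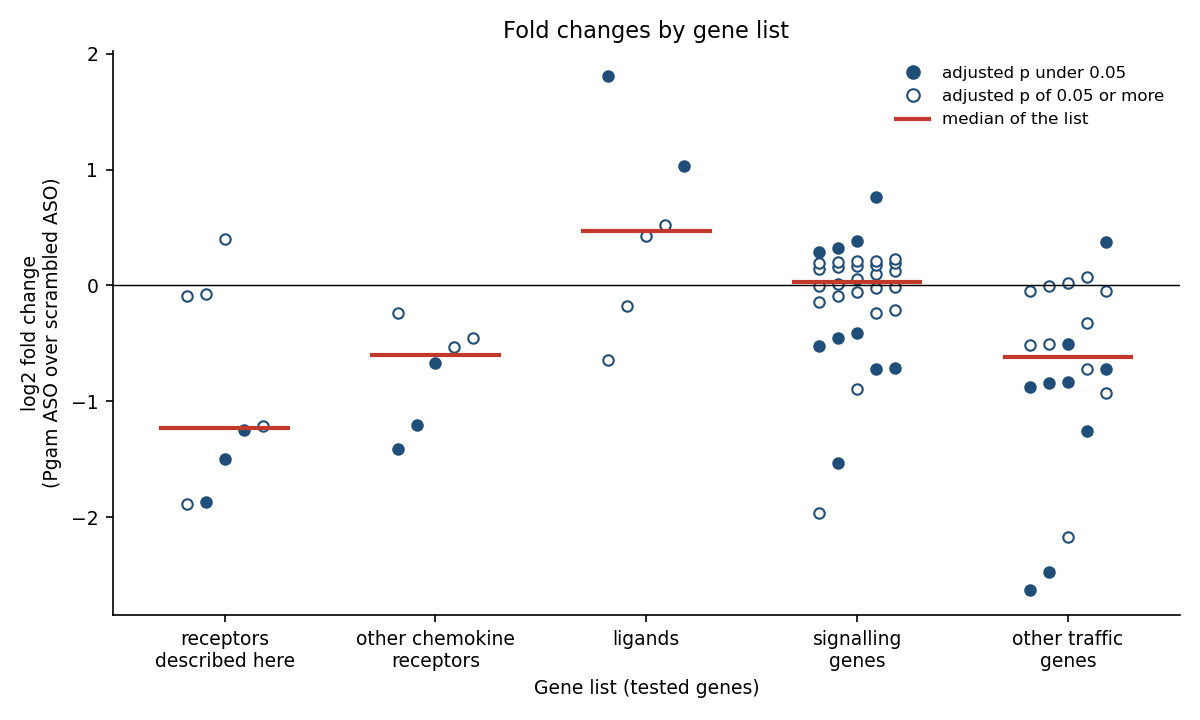
Log2 fold change (vertical axis, Pgam ASO over scrambled ASO) of every tested gene in the 5 lists, with filled points for an edgeR adjusted p under 0.05 and red lines for list medians. The median is -1.23 for the receptors described here, -0.60 for other chemokine receptors, 0.47 for ligands, 0.03 for signalling genes and -0.62 for other traffic genes, beside -0.0061 for all tested genes.

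Markers of cell types were read beside these results. For comparison with the counts called in each list, 9.15% of all tested genes were called lower and 8.03% higher. T cell markers (*Cd3d*, *Cd3e*, *Cd3g*, *Cd4*, *Trac*, *Cd28* and *Cd5*) were abundant in every library and led by *Cd4* with a mean of 718 CPM. Their sum was 2629, 2885 and 2429 CPM in the libraries labelled scrambled ASO and 1997, 2052 and 2128 CPM in those labelled *Pgam* ASO, without overlap, and 3 of 7 fell, *Trac*, *Cd28* and *Cd5*. The list of NK cells (*Ncr1*, *Klrb1c*, *Klrk1*, *Eomes* and *Nkg7*) summed to 71.0, 51.3 and 82.4 CPM against 49.6, 42.3 and 36.6 CPM. Of its 5 genes, 1 fell, *Eomes*, which T cells also express and which was the most abundant, while the defining markers *Klrb1c* and *Ncr1* were at 0 and at no more than 0.108 CPM. *Klrk1* went the other way without being called, at 2.36, 2.11 and 2.35 CPM against 5.84, 3.85 and 2.49 CPM. The list of mast cells or basophils (*Kit*, *Fcer1a*, *Cpa3*, *Mcpt8* and *Ms4a2*) summed to 6.36, 7.29 and 7.37 CPM against 5.03, 5.45 and 5.74 CPM, and 1 of 5 fell, its most abundant gene *Kit*. The other genes of that list did not share this direction. *Cpa3* was at 0.957, 1.51 and 0.743 CPM against 2.55, 2.25 and 2.13 CPM, higher without overlap but not called (log2 fold change 1.09, edgeR adjusted p = 0.0526). *Fcer1a* (0, 2 and 0 counts against 4, 8 and 6) and *Mcpt8* (0, 2 and 3 counts against 16, 11 and 5) were also higher without overlap, and *Ms4a2* overlapped. *Fcer1a* and *Mcpt8* did not pass the filter on low counts. With no such filter, edgeR called *Mcpt8* higher (log2 fold change 2.71, adjusted p = 0.0166) but not *Fcer1a* (3.08, adjusted p = 0.0770). The list of CD8 T cells (*Cd8a* and *Cd8b1*) summed to 11.3, 13.5 and 10.8 CPM against 14.6, 10.9 and 15.7 CPM, led by *Cd8b1*, and 1 of 2 rose, *Cd8a*. The list of dendritic cells (*Itgax*, *Flt3*, *Zbtb46*, *Xcr1* and *Siglech*) summed to 7.03, 6.97 and 7.87 CPM against 6.89, 5.45 and 4.20 CPM, without overlap. Its most abundant gene, *Zbtb46*, was the only 1 of the 5 tested (log2 fold change -0.57, edgeR adjusted p = 0.134), and *Siglech* was at 0. *Itgax* (5, 6 and 6 counts against 9, 7 and 6) and *Flt3* (10, 6 and 8 counts against 6, 13 and 14) overlapped and did not share this direction. With no filter on low counts, their log2 fold changes in edgeR were 0.48 and 0.57, and neither was called. *Xcr1* (4, 0 and 0 counts against 3, 0 and 0) had -0.25 there and was not called either. The part of these lists in the results was not tested. Lists of plasma cells (*Sdc1*, *Jchain* and *Mzb1*), myeloid cells (*Lyz2*, *Csf1r*, *Adgre1*, *Itgam*, *Cd14*, *Ly6g*, *S100a8* and *S100a9*) and erythroid cells (*Hba-a1*, *Hbb-bs*, *Hbb-bt* and *Alas2*) each summed to between 1.55 and 8.26 CPM in every library, and the sum of each overlapped between the labels.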

How the data were processed

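RNA-seq was done on polyA RNA of 6 cultures. The estimated counts per Ensembl gene are those the authors deposited, made with Kallisto on GRCm38 per the submitters' processing notes, as whole numbers without normalization. The Kallisto version, annotation and summing of transcripts are not given in the sources used here. Of 56748 genes, 52073 had a symbol in the table of gene names.

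The analysis ran under R 4.3.3 on edgeR 4.0.16. The filterByExpr rule kept 14936 genes, TMM gave factors of 0.9721 to 1.029, and labels were compared by a two-sided, robust quasi-likelihood test with Benjamini-Hochberg adjustment over all tested genes and a threshold of 0.05. CPM are TMM-normalized, and log2 CPM used a prior count of 2. Per-kilobase levels used transcript lengths of GENCODE M21, since lengths used by the authors are not given in the sources used here. No batch is given in the labels. Chi-square per degree of freedom between libraries of a label was 7.43 to 26.8, well above sampling noise, so no library was taken as a duplicate. The count of 3 as a floor covers counting error only.

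The genes named are the 9 members, *Pgam1*, *Pgam2* and *Foxp3*, up to 4 called genes in each direction per list with the largest fold change at a mean log2 CPM of at least 0, each called ligand, and 2 genes most like each called member. Not every gene that this rule takes is described. Others were named after their values were seen. The members and lists were chosen with earlier results of these data known. Alternatives were DESeq2 1.42.0, limma-voom (limma 3.58.1), RLE size factors, library size alone, no filter, a minimum of 10 counts per library, a block for replicate number, omission of single libraries, thresholds of 0.01 on the adjusted p and of 1 on the size of the log2 fold change, and, for *Ccr9*, counts summed with genes sharing reads. The longest transcript for shares was added after the data were seen.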

Additional observations from a re-analysis of the deposited data

How the results depend on the processing

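The falls of *Ccr7* and *Cxcr5* were called in each of 13 alternatives and that of *Cxcr6* in 12. *Ccr2* and *Ccr4* changed sign without being called: *Ccr2* had a log2 fold change of 0.02 with limma-voom, 0.41 without replicate 2 labelled scrambled ASO and 0.04 without replicate 1 labelled *Pgam* ASO, and *Ccr4* 0.02 without replicate 3 labelled scrambled ASO. With single libraries left out, the values ran from -0.34 to 0.41 for *Ccr2* and from -0.20 to 0.02 for *Ccr4*. The cause was not tested. For the 18 genes that the naming rule takes from the other lists, 174 of 232 alternatives kept the call, 58 lost it and 0 changed sign.

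With replicate number as a block, 1235 genes were called in place of 2565, 0 ligands in place of 2 and 6 signalling genes in place of 10, while *Cxcr4* was called (-1.37, adjusted p = 0.0351). For deviations from the label mean, r across genes was -0.237 to 0.0534 for libraries of equal number, against -0.254 to 0.280 for unequal numbers. Within a label these deviations sum to 0 for each gene, so r cannot decide whether equal numbers share a mouse or a culture day. The sources used here do not say whether they do, and the numbers were not taken as pairs. An adjusted p under 0.01 left 453 genes, 1 other chemokine receptor, 0 ligands, 2 signalling genes and 2 traffic genes. A log2 fold change of 1 or more in size left 674 genes, 1 signalling gene and 3 traffic genes. Limma-voom called 1 ligand, *Ccl17*. With at least 10 counts in every library 1 was called, *Ccl1*, since *Ccl17*, with 9 counts in replicate 2 labelled scrambled ASO, was not tested. The thresholds are stricter by construction, and for the block and limma-voom the cause was not tested.

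With each library left out in turn, the number called ran from 391 to 3484 for all genes, 2 to 6 for the receptors, 1 to 3 for other chemokine receptors, 0 to 2 for ligands, 2 to 10 for signalling genes and 3 to 13 for traffic genes. The cause was not tested. With the longest transcript, the mean shares of *Ccr7*, *Ccr4* and *Ccr8* moved to 67.8%, 16.8% and 11.5% in the libraries labelled scrambled ASO and to 36.2%, 31% and 29.7% in those labelled *Pgam* ASO. Depth limits *Ccr2*, *Ccr9* and *Ccr10*, which had at most 25 counts in any library.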
